A study of Mus musculus with 6 samples.

Results

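Triglyceride synthesis was followed through 10 genes that encode enzymes of the glycerol phosphate pathway and of its monoacylglycerol side route. They were taken from the deposited table by gene symbol: Gpam, Gpat3, Gpat4, Agpat2, Agpat3, Lpin1, Lpin2, Dgat1, Dgat2 and Mogat1. All 10 were found among the 54532 genes of the table, and all 10 passed the filter on low counts, which left 15591 genes for testing. RNA came from old mice kept in the cold for 7 days and was taken from inguinal white adipose tissue, a subcutaneous depot. One group of 3 libraries came from vehicle treatment and the other group of 3 from estrogen treatment, and both groups had the same cold exposure. The labels name no strain, sex or exact age and no dose or route of estrogen.

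Adipocytes store energy as triglyceride, which is built from glycerol 3-phosphate and fatty acyl-CoA in 4 enzymatic steps. A glycerol 3-phosphate acyltransferase adds the first acyl chain to give lysophosphatidic acid, and an acylglycerol phosphate acyltransferase adds the next to give phosphatidic acid. A lipin removes the phosphate to leave diacylglycerol, and a diacylglycerol acyltransferase adds the last chain. Each step has several isozymes, and monoacylglycerol acyltransferases can feed diacylglycerol in from partly broken-down triglyceride. Loss of Agpat2 or of Lpin1 is a known cause of lipodystrophy in mice, so these steps are held to be needed for normal fat storage.

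With estrogen, 9 of the 10 genes had a positive log2 fold change (50.3% of all tested genes did) and Lpin2 a negative one, with a median of 0.67 over the 10 against 0.0025 over all 15591 tested genes. By edgeR's quasi-likelihood test with Benjamini-Hochberg adjustment, 0 of the 10 passed 0.05, where 0% of all tested genes were called higher and 0% lower. Of the 10, 6 were higher at an unadjusted p under 0.05 (Gpam, Gpat4, Agpat2, Lpin1, Dgat1 and Dgat2) and 0 lower, against 9.49% of all tested genes higher and 10.9% lower. DESeq2 on the same counts called 3 of them higher, Lpin1, Agpat2 and Gpat4, and 0 lower, against 2.46% of all genes called higher and 2.95% lower, while limma-voom called 0 of the 10 and 0 of all 15591 genes. In 7 of the 10 every estrogen library lay above every vehicle library, against 12.8% of all tested genes. Scaled by library totals only, the number at an unadjusted p under 0.05 was 3 higher and 1 lower of the 10, and 589 higher and 2981 lower of all 15591 genes. That scaling moved the median of all genes by -0.17 on the log2 scale, and no member changed direction under it.

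Total counts ran from 16046601 to 20736771 per library, and the 10 genes together took 0.375 to 0.420% of the counts with vehicle and 0.468 to 0.633% with estrogen. The mitochondrial genome's share was 8.72, 6.40 and 6.26% with vehicle and 9.08, 10.2 and 11.7% with estrogen, by replicate, so this share did not overlap between groups, and its part in the enzymes' results was not tested. All 8 adipocyte markers examined, Adipoq and Fabp4 among them, were detected in each library. Their summed level was 18900.5, 14741 and 22045 CPM in vehicle replicates 1, 2 and 3 and 21824, 22087 and 37468 CPM in the estrogen replicates (CPM, the count over the library size scaled by trimmed mean of M values). The adipocyte markers had a median log2 fold change of 0.62, 6 of 8 positive, with Slc2a4 and Rbp4 called higher by DESeq2. The 2 negative ones were Lep (-0.73 ± 0.55) and Pparg (-0.08 ± 0.21). Stromal and progenitor markers had negative fold changes in 8 of 8, 1 of them called by DESeq2, with 14435 to 41518 summed CPM with vehicle and 1369 to 10125 with estrogen. Macrophage markers were negative in 6 of 6, 1 of them called by DESeq2, with 902 to 1215 against 244 to 656 CPM. Brown and beige adipocyte markers, positive in 5 of 5 with 0 called, overlapped between groups (678 to 1537 and 348 to 2891 CPM). Estrogen replicate 1 alone held skeletal muscle markers at 7007 summed CPM, where the other 5 libraries had 2.65 to 59.3. Of the lymphocyte lists, 5 genes each, B cell markers stood at 121 and 77.0 CPM in estrogen replicates 1 and 3 and at 2.24 to 4.25 elsewhere, with T cell markers highest in estrogen replicate 1 at 46.9 CPM. Endothelial markers overlapped between groups (401 to 549 and 481 to 653 CPM). The epithelial genes Krt14, Krt5 and Wap had no count in any library, and the list of 7 to which they belong reached at most 0.518 CPM. In whole tissue a larger share of adipocytes and more of a transcript in each adipocyte cannot be told apart, and the part of these markers in the enzymes' results was not tested.

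**Figure D1:**
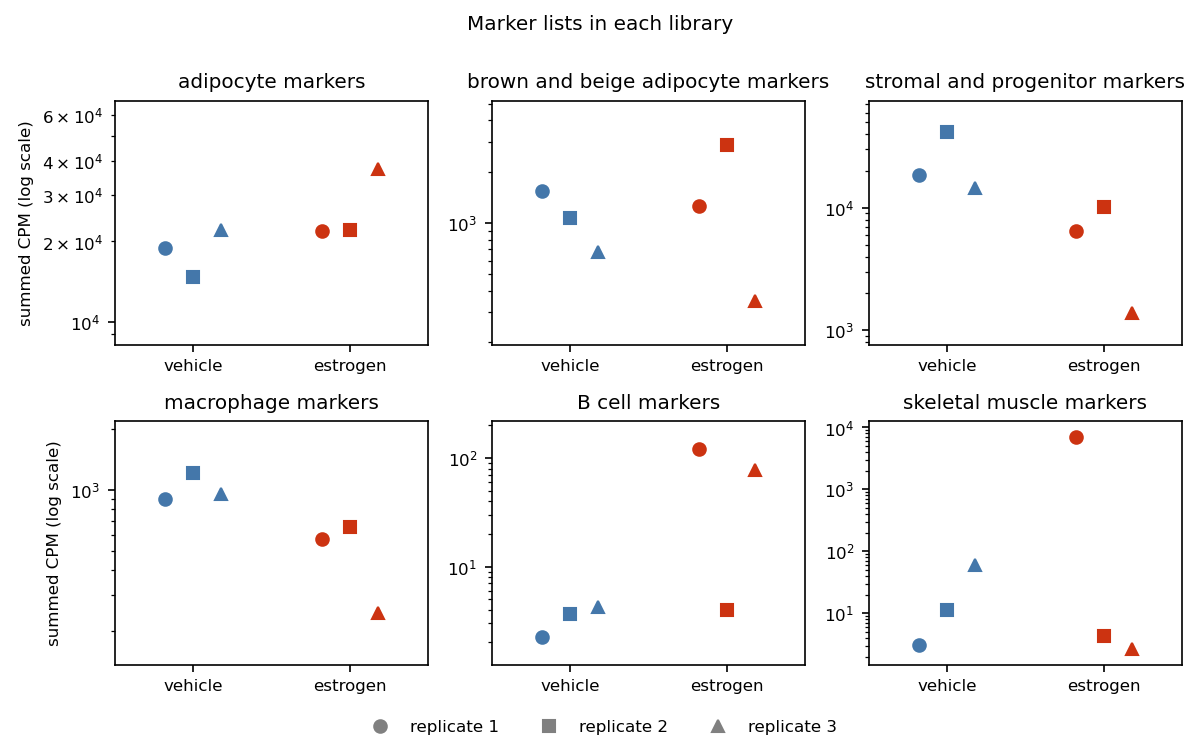
Summed CPM of 6 lists of cell type markers (log scale, y axis) in the 3 vehicle and 3 estrogen libraries, 1 point per library with the marker shape giving the replicate. Adipocyte markers are highest in estrogen replicate 3, stromal and macrophage markers are lower in the 3 estrogen libraries, and muscle markers stand out in estrogen replicate 1.

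Compared per length (CPM divided by the deposited gene length in kilobases), the enzymes of a single pathway differed widely in level. Agpat2 (475 ± 96.0 CPM per kb, SD, n = 3) and Dgat2 (461 ± 29.1) were the highest with vehicle and did not differ beyond their spread. Dgat1 followed at 91.8 ± 15.0. Gpam (38.5 ± 16.7), Agpat3 (37.7 ± 3.30), Lpin1 (30.6 ± 4.12), Gpat4 (29.6 ± 3.54) and Gpat3 (27.8 ± 6.74) lay within one another's spread or close to it. Mogat1 was at 14.7 ± 0.549 and Lpin2 lowest at 1.70 ± 0.261. In the estrogen libraries the order began the same, with Agpat2 at 837 ± 174, Dgat2 at 662 ± 168, Dgat1 at 162 ± 68.8 and Gpam at 68.1 ± 8.87, and it ended the same, with Mogat1 at 17.5 ± 2.94 and Lpin2 at 1.37 ± 0.173. The steps that use glycerol 3-phosphate and phosphatidic acid thus had far fewer transcripts per length than the acylation of lysophosphatidic acid and of diacylglycerol. These levels depend on the gene models, and Lpin2 has the longest model of the 10 at 12233 bases against 1558 for Mogat1.

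**Figure D2:**
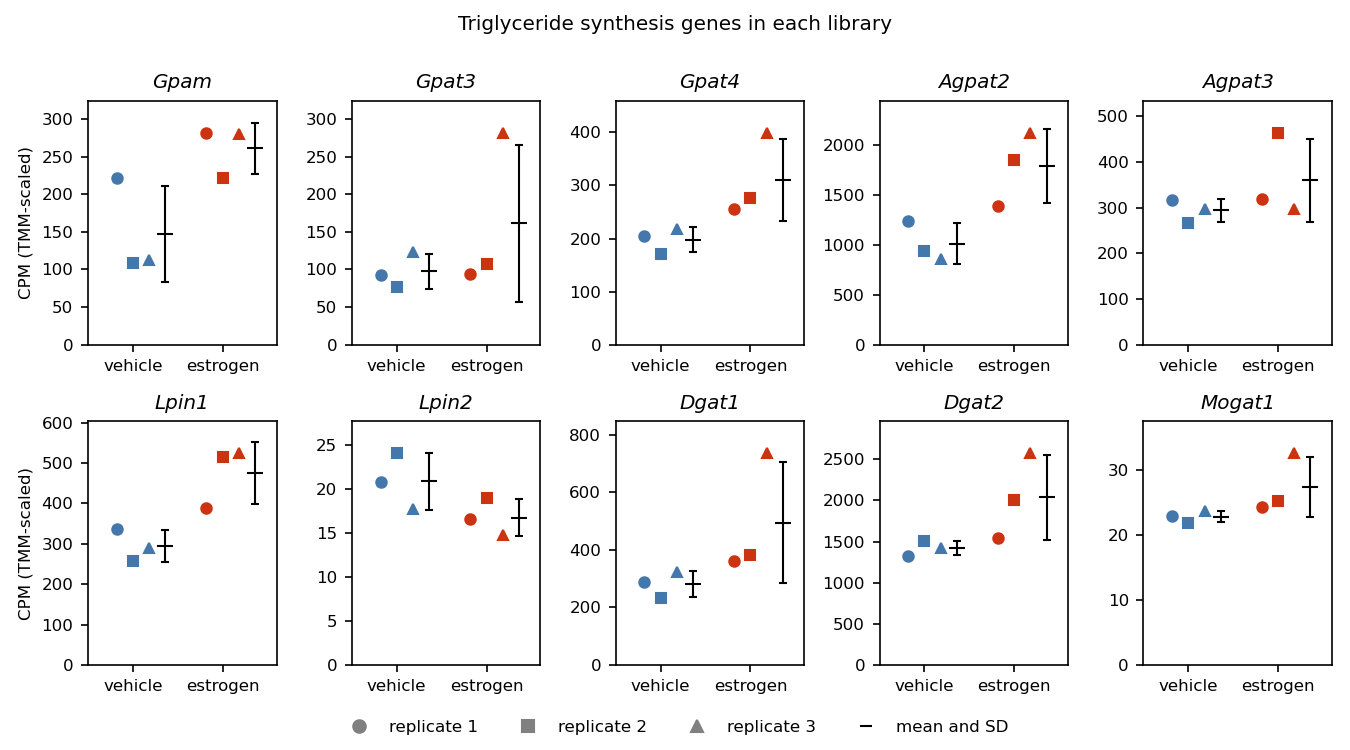
CPM of each of the 10 genes (y axis, each panel from 0) in the 3 vehicle and 3 estrogen libraries, with the group mean and SD in black. With this scaling the groups do not overlap for Gpam, Gpat4, Agpat2, Lpin1, Dgat1, Dgat2 and Mogat1. Over library totals alone Gpam, Dgat2 and Mogat1 overlap. Estrogen replicate 3 is the highest library for Gpat3, Gpat4, Agpat2, Lpin1, Dgat1, Dgat2 and Mogat1.

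Values of a gene are given for replicates 1, 2 and 3 of a group in that order. The first step has 3 isozymes here. Gpam encodes the acyltransferase of the mitochondrial outer membrane (ENSMUSG00000024978, chromosome 19, 55069734 to 55099451, mm10). Gpam was at 221, 109 and 112 CPM in the vehicle libraries and 282, 222 and 279.9 CPM in the estrogen libraries. Vehicle replicate 1 nearly reached estrogen replicate 2, and the other vehicle libraries lay far below. The log2 fold change of Gpam was 0.83 ± 0.29 (SE; edgeR adjusted p = 0.212, DESeq2 adjusted p = 0.0767), and 1.24 without vehicle replicate 1. Gpat4 (ENSMUSG00000031545, chromosome 8, 23171265 to 23208346) encodes an isozyme of the endoplasmic reticulum. Its level was 204, 172 and 218 CPM with vehicle and 256, 276 and 399 CPM with estrogen, without overlap. For Gpat4 the log2 fold change was 0.65 ± 0.20 (edgeR adjusted p = 0.207), DESeq2 called it (adjusted p = 0.0499), and without estrogen replicate 3 the log2 fold change was 0.43. Gpat3, the other isozyme of that compartment (ENSMUSG00000029314, chromosome 5, 100845713 to 100899102), was at 92.8, 76.2 and 123 CPM with vehicle and 94.3, 107 and 282 CPM with estrogen. Only estrogen replicate 3 lay above the vehicle range. Its log2 fold change of 0.73 ± 0.43 (edgeR adjusted p = 0.356) was 0.05 without that library. An antisense gene on the opposite strand of Gpat3, 4930458D05Rik, had 429 counts over the 6 libraries. It was at 2.03, 2.02 and 3.60 CPM with vehicle and 3.94, 3.54 and 9.47 CPM with estrogen, so it too was highest in estrogen replicate 3. Its part in the Gpat3 counts was not tested.

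Over the 3 isozymes the summed level per length was 115, 75.8 and 97.0 CPM per kb in the vehicle libraries and 139, 129.9 and 213 in the estrogen libraries. No isozyme dominated this step. Gpam made up 39.3 ± 10.2% of the sum with vehicle and 43.9 ± 9.38% with estrogen (SD, n = 3), Gpat4 31.4 ± 4.13% and 29.1 ± 2.31%, and Gpat3 29.3 ± 6.55% and 26.9 ± 9.59%. The ratio of Gpam to Gpat3 plus Gpat4 was 1.01, 0.597 and 0.433 in the vehicle libraries and 1.13, 0.805 and 0.521 in the estrogen libraries. These ranges overlapped. The difference in the log2 ratio was 0.28 by an exact two-sided permutation test (p = 0.700, adjusted p = 0.700 over the 4 ratios tested), 0.61 without vehicle replicate 1, 0.57 without estrogen replicate 3, 0.02 without estrogen replicate 1 and 0.00304 without vehicle replicate 3. With 3 libraries against 3, no such test can give a p under 0.1.

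The next acyl chain is added to lysophosphatidic acid. Agpat2, the isozyme whose loss causes lipodystrophy (ENSMUSG00000026922, chromosome 2, 26593057 to 26604417), was at 1242, 938 and 853 CPM in the vehicle libraries and 1386, 1843 and 2119.5 CPM in the estrogen libraries. The groups did not overlap, and estrogen replicate 1 was closest to the vehicle range. For Agpat2 the log2 fold change was 0.82 ± 0.23 (edgeR adjusted p = 0.207), and DESeq2 called it (adjusted p = 0.0200). Egfl7, a gene of endothelial cells that overlaps Agpat2 on the opposite strand, was itself at 56.0, 48.8 and 62.3 CPM with vehicle and 66.3, 84.7 and 111 CPM with estrogen. It had 5.18% as many counts as Agpat2, and no source used here states whether counting used strand. Agpat3 encodes a widely expressed isozyme (ENSMUSG00000001211, chromosome 10, 78269178 to 78352489). Agpat3 was at 317, 266 and 297 CPM with vehicle and 319, 463 and 297 CPM with estrogen. Estrogen replicate 2 stood above the rest, and the other 5 libraries were intermixed. The log2 fold change of Agpat3 was 0.29 ± 0.20 (edgeR adjusted p = 0.419), 0.07 without estrogen replicate 2 and 0.13 when scaled by library totals only.

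Agpat2 supplied 92.5 ± 1.11% of the summed level per length of the pair with vehicle and 94.7 ± 1.46% with estrogen. The sum was 624, 475 and 438 CPM per kb in the vehicle libraries and 691, 925 and 1033 in the estrogen libraries. Agpat2 was 14.3, 12.9 and 10.5 times as abundant per length as Agpat3 in the vehicle libraries and 15.9, 14.5 and 26.1 times in the estrogen libraries. Vehicle replicate 1 and estrogen replicate 2 were nearly equal, and estrogen replicate 3 stood apart. The log2 ratio differed by 0.55 (exact two-sided permutation p = 0.1, the smallest possible; adjusted p = 0.200), and by 0.29 without estrogen replicate 3.

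At the lipin step the 2 isozymes among the 10 genes had fold changes of opposite sign. A further lipin outside the 10, Lpin3, was at 4.04 ± 0.899 CPM per kb with vehicle (SD), above Lpin2 at 1.70 ± 0.261. The log2 fold change of Lpin3 was -0.27 ± 0.20, and it is not part of the ratio or sum below. Lpin1, the main phosphatidic acid phosphatase of adipocytes and muscle, which also acts as a coactivator in the nucleus (ENSMUSG00000020593, chromosome 12, 16535669 to 16610966), was at 338, 258 and 290.3 CPM with vehicle and 388, 516 and 525 CPM with estrogen. The lowest estrogen library was above the highest vehicle library. Lpin1 had the smallest p of the 10 genes, with a log2 fold change of 0.69 ± 0.18 (edgeR unadjusted p = 0.00604, adjusted p = 0.207), and DESeq2 called it (adjusted p = 0.0188). Estrogen replicate 1, the library with muscle markers, had the lowest Lpin1 of its group, and the log2 fold change without it was 0.80. It was also the lowest estrogen library for Gpat3, Gpat4, Agpat2, Dgat1, Dgat2 and Mogat1. The part of muscle in the Lpin1 level was not tested. Lpin2 (ENSMUSG00000024052, chromosome 17, 71182560 to 71249817) was at 20.7, 24.0 and 17.7 CPM with vehicle and 16.5, 18.9 and 14.7 CPM with estrogen, with overlapping groups. Its log2 fold change was -0.31 ± 0.17 (edgeR adjusted p = 0.310), -0.20 without vehicle replicate 2 and -0.48 when scaled by library totals only.

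The ratio within a library does not depend on scaling. Lpin1 was 20.6, 13.6 and 20.8 times as abundant per length as Lpin2 in the vehicle libraries and 29.7, 34.5 and 45.2 times in the estrogen libraries. All 3 estrogen libraries lay above all 3 vehicle libraries. The mean log2 ratio was 5.17 ± 0.31 with estrogen and 4.17 ± 0.35 with vehicle (SD, n = 3), a difference of 0.996, which was the largest of the 4 ratios tested (exact two-sided permutation p = 0.1, the smallest possible; adjusted p = 0.200). Leaving out single libraries gave 0.79 to 1.13. The summed level of the pair was 36.6, 28.7 and 31.5 CPM per kb with vehicle and 41.5, 54.9 and 55.5 with estrogen.

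**Figure D3:**
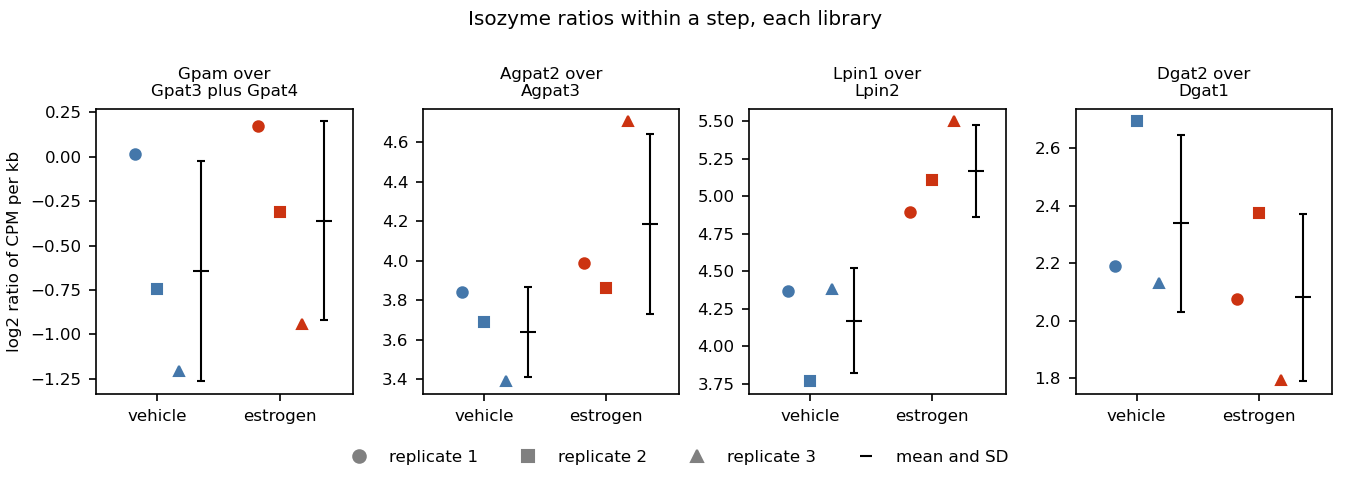
Log2 ratios of isozyme levels per length within each library (y axis, separate scale in each panel), with the group mean and SD in black. The Lpin1 to Lpin2 and Agpat2 to Agpat3 ratios do not overlap between groups, whereas the Gpam and the Dgat2 to Dgat1 ratios do.

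Start-site sequences of the lipin pair, of Gpam and of Agpat2 are shown because these genes hold the isozyme contrast, the letter matches and 2 of the highest fold changes. RefSeq windows of 300 bases (GRCm38.p6, 250 before and 50 after a start) were used for 7 of the 10 genes, 10 windows in all, and none for Gpat4, Dgat1 or Dgat2. The letters AGGTCA, a single arm of the element bound by estrogen receptors and other nuclear receptors, were searched on both strands. They occurred in 2 of the 10 windows, against 16.3% of all 32851 mouse windows. The E-box CACGTG, which reads the same on both strands and is bound by factors of the SREBP and ChREBP kind, occurred in 1, against 7.15%. The palindromic estrogen response element, GGTCA and TGACC set 3 bases apart (in 0.07% of all windows), and the sterol element TCACNCCAC (in 1.24%) had no match in these 10. A palindrome preceded by A would contain AGGTCA. In the windows shown, the AGGTCA begins 74 bases before the start in Lpin1 and 196 bases before it in Gpam. The E-box of Lpin2 begins 9 bases before the start. Gpam and Lpin2 also have windows at other starts, not shown, and these had no match. A match is a run of letters and not a measured site. Each window reads 5′ to 3′ on the gene's strand, with matches in capitals; the Agpat2 window has none.
Lpin1, chr12:16610917-16611216, minus strand: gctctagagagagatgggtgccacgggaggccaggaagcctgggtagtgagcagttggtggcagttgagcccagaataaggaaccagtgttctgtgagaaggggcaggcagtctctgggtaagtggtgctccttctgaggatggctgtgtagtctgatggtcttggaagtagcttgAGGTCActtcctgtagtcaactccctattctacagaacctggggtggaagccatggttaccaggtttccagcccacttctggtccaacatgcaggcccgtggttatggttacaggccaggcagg
Lpin2, chr17:71183282-71183581, plus strand: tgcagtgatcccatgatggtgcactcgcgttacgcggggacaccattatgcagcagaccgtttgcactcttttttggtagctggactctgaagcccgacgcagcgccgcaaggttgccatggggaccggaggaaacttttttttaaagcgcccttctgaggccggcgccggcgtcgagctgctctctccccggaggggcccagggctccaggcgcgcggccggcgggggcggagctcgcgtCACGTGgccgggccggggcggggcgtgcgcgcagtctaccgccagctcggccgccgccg
Gpam, chr19:55099428-55099727, minus strand: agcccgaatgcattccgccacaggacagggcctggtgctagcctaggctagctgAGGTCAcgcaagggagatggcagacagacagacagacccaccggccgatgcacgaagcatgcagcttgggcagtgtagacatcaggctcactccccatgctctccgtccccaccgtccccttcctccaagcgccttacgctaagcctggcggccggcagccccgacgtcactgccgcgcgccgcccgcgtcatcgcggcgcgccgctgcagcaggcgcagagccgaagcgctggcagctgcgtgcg
Agpat2, chr2:26604368-26604667, minus strand: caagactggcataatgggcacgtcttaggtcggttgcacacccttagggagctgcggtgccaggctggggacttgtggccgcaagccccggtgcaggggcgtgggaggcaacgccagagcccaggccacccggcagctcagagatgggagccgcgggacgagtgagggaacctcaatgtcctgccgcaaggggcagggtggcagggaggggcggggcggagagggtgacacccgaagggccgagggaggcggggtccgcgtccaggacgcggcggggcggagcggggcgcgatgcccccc

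The last acyl chain is added by 2 enzymes of unrelated sequence families. Dgat2, which works at the endoplasmic reticulum and at the droplet surface (ENSMUSG00000030747, chromosome 7, 99153658 to 99182719), was at 1329, 1508 and 1424 CPM with vehicle and 1544, 2001 and 2576 CPM with estrogen. Estrogen replicate 1 was just above the vehicle range, and the other estrogen libraries were well above it. Dgat2 had a log2 fold change of 0.52 ± 0.22 (edgeR adjusted p = 0.237, DESeq2 adjusted p = 0.107), 0.32 without estrogen replicate 3 and 0.34 when scaled by library totals only. Dgat1, which resides in the endoplasmic reticulum (ENSMUSG00000022555, chromosome 15, 76502015 to 76511953), was at 289, 231 and 322 CPM with vehicle and 363, 382 and 736 CPM with estrogen. Estrogen replicate 3 was the highest library by far, though the other estrogen libraries also exceeded the vehicle range. Dgat1 had a log2 fold change of 0.82 ± 0.30 (edgeR adjusted p = 0.213, DESeq2 adjusted p = 0.0775) and 0.41 without that library.

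Dgat2 held 83.4 ± 2.83% of the summed level per length of the pair with vehicle and 80.8 ± 3.12% with estrogen. The sum was 525, 565 and 567 CPM per kb in the vehicle libraries and 619.6, 774 and 1076 in the estrogen libraries. Dgat2 was 4.56, 6.47 and 4.39 times as abundant per length as Dgat1 with vehicle and 4.22, 5.19 and 3.47 times with estrogen, with overlapping ranges. The log2 ratio differed by -0.26 (exact two-sided permutation p = 0.400, adjusted p = 0.533), by -0.08 without vehicle replicate 2, -0.11 without estrogen replicate 3 and -0.40 without estrogen replicate 2.

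Mogat1, the monoacylglycerol acyltransferase of the side route (ENSMUSG00000012187, chromosome 1, 78510991 to 78538173), was at 23.0, 21.9 and 23.6 CPM with vehicle and 24.3, 25.1 and 32.6 CPM with estrogen. The groups did not overlap, though the vehicle range ended just below estrogen replicate 1. The log2 fold change was 0.26 ± 0.14 (edgeR adjusted p = 0.331), 0.12 without estrogen replicate 3 and 0.08 when scaled by library totals only. BC035947 overlaps Mogat1 on the opposite strand and had 32.8% as many counts, so reads of the pair may not be separable. Across the 4 main steps and this route, the summed scaled level of every estrogen library lay above that of every vehicle library. Over library totals alone, the sum of the final acylation and Mogat1 overlapped between groups. Of all tested single genes 12.8% were higher without overlap on the scaled levels, and sums of other genes were not examined. Apart from the first acylation, each sum is carried mostly by its most abundant isozyme. The ratio of the group means was 1.68 for the first acylation, 1.72 for the next, 1.57 for the lipins, 1.49 for the final acylation and 1.20 for Mogat1.

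**Figure D4:**
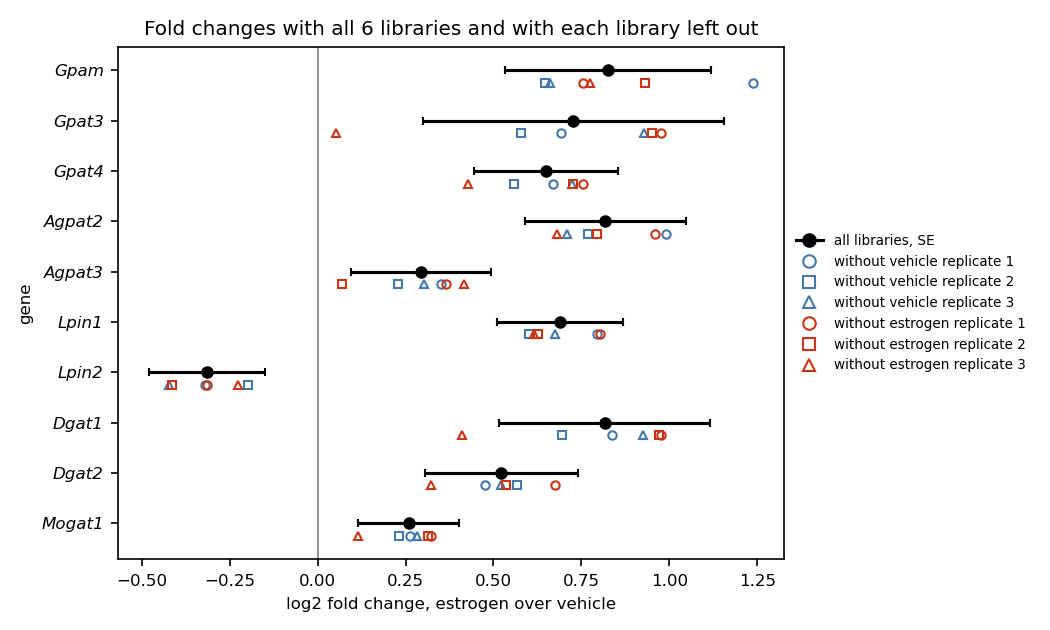
Log2 fold change, estrogen over vehicle (x axis), of the 10 genes with all 6 libraries (black, bars are SE) and with each library left out (open symbols). All values keep their sign, and leaving out estrogen replicate 3 gives the lowest value for Gpat3, Gpat4, Agpat2, Dgat1, Dgat2 and Mogat1.

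At an unadjusted p under 0.05 (edgeR), Lpin1 and Agpat2 remained after leaving out any one of the 6 libraries. Without vehicle replicate 2 they were the only 2 of the 6, while the number over all genes went from 1480 to 647 higher. Without estrogen replicate 3 they were joined by Gpat4, and 1132 of all genes were higher. The median over the 10 genes was 0.41 without estrogen replicate 3, the library with the highest summed adipocyte markers and the lowest summed stromal markers. Not every adipocyte gene was high in that library: Lep (28.6 CPM) and Ucp1 (10.2 CPM) were at their lowest there.

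Levels were also set against the mean log2 CPM of the 8 adipocyte markers in the same library. On that scale the estrogen minus vehicle difference was 0.55 for Gpam, 0.46 for Agpat2, 0.40 for Dgat1, 0.33 for Lpin1, 0.28 for Gpat4, 0.22 for Gpat3 and 0.14 for Dgat2. Agpat3 (-0.08), Mogat1 (-0.11) and Lpin2 (-0.66) were negative. No difference passed after adjustment over the 10 genes (smallest adjusted p = 0.200, exact two-sided permutation test). None could pass 0.05, because 3 libraries against 3 cannot give a p under 0.1 in this test. Against the median of the markers in place of the mean, Gpat3, Gpat4, Lpin1, Dgat1 and Dgat2 turned negative, at -0.19, -0.13, -0.07, -0.00537 and -0.26. Gpam and Agpat2 stayed positive and Lpin2 and Mogat1 negative under each of the 8 alternatives run on this scale. Against the median of the markers, though, Gpam was only at 0.14 and Agpat2 at 0.06. The adipocyte markers themselves differed by 0.35 on the mean log2 scale. Their mean includes Lep, at 177, 214 and 136 CPM with vehicle and 155, 134 and 28.6 CPM with estrogen. How far Lep set the differences on this scale was not tested.

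Other isozymes of the same steps, from a list of 8, had no common direction: 3 of 7 tested were positive and 4 negative, with a median of -0.05. By edgeR 0 passed, at an unadjusted p under 0.05 2 were higher and 1 lower, and DESeq2 called 1 lower. That gene was Agpat4, a paralogue of the lysophosphatidic acid acyltransferases, at 27.0, 34.6 and 13.8 CPM with vehicle and 11.7, 12.6 and 6.13 CPM with estrogen, a log2 fold change of -1.30 ± 0.39 (DESeq2 adjusted p = 0.0383). The 3 estrogen libraries lay below the vehicle libraries, as did the summed stromal and macrophage markers, whose part in it was not tested. Agpat1, an isozyme of the endoplasmic reticulum, was at 79.8, 76.1 and 66.7 CPM against 81.6, 101 and 115 CPM (log2 fold change 0.42 ± 0.16). Mogat2 was higher at an unadjusted p under 0.05 but low, at 1.83, 2.48 and 0.738 CPM with vehicle and 2.95, 4.58 and 5.36 CPM with estrogen (1.35 ± 0.47). Lpin3 had a log2 fold change of -0.27, Agpat5 -0.05, Lclat1 0.08 and Lpgat1 -0.26. Gpat2 was too low to test, at 0.81 CPM or less.

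Genes that feed the pathway were followed next. Of 5 genes of glycerol 3-phosphate supply 5 were positive (median 0.21), 0 passed by edgeR or DESeq2 and 1 was higher at an unadjusted p under 0.05. Gpd1, which makes glycerol 3-phosphate from a glycolytic intermediate, was at 2652, 2103 and 1593 CPM against 2679, 5059 and 3281 CPM, a log2 fold change of 0.80 ± 0.30. Aqp7, the glycerol channel of adipocytes, had 0.33 ± 0.15 and Gpd1l 0.21 ± 0.13. Of 4 tested acyl-CoA synthetases 3 were positive (median 0.42), with 0 passing and 1 higher at an unadjusted p under 0.05. Acsl1, the main form of adipocytes, had 0.78 ± 0.30, Acsl4 -0.31 ± 0.17 and Acsl3 0.35 ± 0.21.

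Among transcription factors of lipid synthesis, a list that shares Pparg with the adipocyte markers, 4 of 6 were positive (median 0.50). By edgeR 0 passed, 3 were higher at an unadjusted p under 0.05, and DESeq2 called 2 higher. Mlxipl, which encodes the carbohydrate-responsive factor ChREBP, was at 177, 167 and 139 CPM against 206, 352 and 315 CPM (0.85 ± 0.22, DESeq2 adjusted p = 0.0201). Srebf1, the sterol-responsive factor, was at 591, 455 and 527 CPM against 674, 766 and 825 CPM (0.53 ± 0.16, DESeq2 adjusted p = 0.0350). In both genes the estrogen libraries lay above the vehicle libraries. Nr1h3, the oxysterol receptor LXR alpha, had 0.47 ± 0.17.

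Of the genes downstream of diacylglycerol and triglyceride, droplet assembly and coat genes were positive in 6 of 7 tested (median 0.26), with 0 passing by either tool and 1 higher at an unadjusted p under 0.05. Fitm2, which helps to package triglyceride into droplets, had 0.57 ± 0.21, Bscl2, the seipin gene, 0.42 ± 0.21, and Cidec, a droplet fusion protein, 0.75 ± 0.40. Fitm1, the muscle paralogue of Fitm2, was below the test filter and was chosen after its values were seen: it was at 8.97 CPM in estrogen replicate 1, at 0.209 CPM in estrogen replicate 3 and without a count in the other 4 libraries. Triglyceride hydrolysis genes were positive in 4 of 5 (median 0.44), 3 of them higher at an unadjusted p under 0.05, and DESeq2 called 2 higher, Pnpla2 (0.85 ± 0.27, adjusted p = 0.0285), the first lipase of triglyceride breakdown, and Mgll (0.44 ± 0.15, adjusted p = 0.0233), the last. Abhd5, the activator of the first lipase, had 0.41 ± 0.16. The hydrolysis genes and the synthesis genes thus had positive values side by side.

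Genes of the phospholipid branch were positive in 8 of 9 (median 0.19), with 0 passing by either tool and 2 higher at an unadjusted p under 0.05. Chpt1, which turns diacylglycerol into phosphatidylcholine, was at 1385, 1029.9 and 1117 CPM against 1545, 1595 and 2484 CPM (0.67 ± 0.24), Pcyt2, of the ethanolamine branch, had 0.49 ± 0.21 and Pemt, which methylates phosphatidylethanolamine, 0.35 ± 0.16. Of 7 tested diacylglycerol kinases, which return diacylglycerol to phosphatidic acid, 4 were positive (median 0.09), with 0 passing by either tool and 1 higher at an unadjusted p under 0.05. That gene, Dgka, was at 15.0, 20.7 and 20.5 CPM against 42.4, 20.5 and 30.6 CPM (0.74 ± 0.27). Its highest values were in estrogen replicates 1 and 3, the libraries with B cell markers, whose part in it was not tested. Dgke had 0.40 ± 0.18 and Dgkd 0.36 ± 0.18. The lipin phosphatase genes Cnep1r1 (-0.08) and Ctdnep1 (-0.05), whose products activate lipins, were both close to 0 and did not pass.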

How the data were processed

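Total RNA of 6 samples was sequenced. The authors deposited unnormalised counts per gene with symbols, coordinates and lengths, made with HISAT2 and featureCounts on mm10, per the submitters' processing notes. Tool versions, the strand setting, the handling of multi-mapping reads and the annotation release are not stated in any source used here. Groups and replicate numbers came from the sample titles, and columns were matched through the sample descriptions, whose numbers differ from the titles. Separate animals are not stated, and p-values then measure only the spread among these samples, which may be technical.

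Genes were filtered with filterByExpr, scaled by trimmed mean of M values and compared by edgeR's quasi-likelihood F test (edgeR 4.0.16, R 4.3.3), with adjustment over all 15591 tested genes. Fold changes are estrogen over vehicle, SE values come from the F statistic, and log2 CPM used a prior count of 2. DESeq2 1.42.0, limma-voom (limma 3.58.1), other scalings and filters, robust dispersions, a block on replicate number and fits that omit single libraries were alternatives. The edgeR script was tested on simulated data. Log2 ratios and marker-relative values were compared by exact two-sided permutation tests. No pair of libraries of a group agreed within sampling noise. The members, the gene lists and the tests were chosen with earlier results of these data known. All 10 members were named whatever their values, all other isozymes of the same steps, and up to 3 genes of smallest p in each other pathway list.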

Additional observations from a re-analysis of the deposited data

How the results depend on the processing

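The genes passing the adjusted threshold numbered 0 among the 10 members under every edgeR alternative and limma-voom, and 3 higher by DESeq2, which over all genes called 384 higher and 460 lower. Without estrogen replicate 2, edgeR called 13 genes higher over all genes, none of them a member, and leaving out single libraries gave 0 to 13 higher. Scaled by library totals only, 3 members were higher and 1, Lpin2, lower at an unadjusted p under 0.05, against 589 higher and 2981 lower over all genes. When single libraries were left out, 2 to 5 members were higher at that level, with 647 to 1536 of all genes higher and 812 to 1784 lower, the lowest numbers without vehicle replicate 2. The median over the members was 0.41 to 0.75, and no member's fold change reversed under any alternative. Gpat4, Agpat2 and Lpin1 passed only with DESeq2. The cause of these differences was not tested, and the fits that omit single libraries also have fewer libraries.

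Relative to adipocyte markers, signs turned at these values. Against the median of the markers Gpat3 was at -0.19, Gpat4 at -0.13, Lpin1 at -0.0724, Dgat1 at -0.00537 and Dgat2 at -0.26. Against Adipoq alone Gpat3 was at -0.0224 and Dgat2 at -0.0997. Without estrogen replicate 3 Gpat3 was at -0.15 and Agpat3 at 0.16; leaving out single libraries gave -0.15 to 0.45 for Gpat3 and -0.34 to 0.16 for Agpat3. The 4 isozyme ratios kept their direction under all 8 alternatives. Dropping the length scaling, 1 of these, cannot alter the difference for a ratio of 1 gene to 1 other. The Gpam difference was only 0.00304 without vehicle replicate 3 and 0.02 without estrogen replicate 1.

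With the replicate number as a block, 0 genes passed, 5 members were higher at an unadjusted p under 0.05 (1341 genes higher and 1964 lower over all), and the members' median was 0.60. Same-numbered libraries of the 2 groups had deviations from the group means that correlated across genes with r of -0.12, 0.16 and 0.29 for numbers 1, 2 and 3. These are title numbers, and by the differing numbers in the sample descriptions the libraries of number 2 are not a pair. They were treated as sharing only a number, and not every library correlated best with its own. Lpin2, the lowest member, had 211 to 475 counts per library, and the effect of depth was not tested.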
